A study of Mus musculus with 16 samples.

Results

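Cytosolic ribosomal proteins are the protein parts of the ribosome that works in the cytoplasm. They were read here in cultured mouse sensory ganglia that carried a virus against or for HIF-1α, before and after their axons were cut. Members were taken by gene symbol, as every probe whose symbol starts with Rpl or Rps and a number, or is Rplp followed by 0, 1 or 2, with the Rps6k kinases left out. This gave 63 symbols on 81 of the 25697 probes in the table. Of these, 56 genes passed the filter on dim probes and were tested among 11151 genes. They comprise 25 proteins of the large subunit, 23 of the small subunit, 2 proteins of the stalk (Rplp0 and Rplp1) and 6 paralogs or binding proteins (Rps27l, Rpl22l1, Rpl7l1, Rps4l, Rpl36al and Rps19bp1). The symbol rule thus takes in Rps19bp1, which binds a ribosomal protein and is not a subunit, and Rps4l, which the RefSeq table lists as a transcribed pseudogene. The other 7 symbols (Rpl14, Rpl17, Rpl39l, Rpl3l, Rpl6, Rplp2 and Rps23) were above an intensity of 16 on 0 of the 16 arrays and were not tested. Of the 56 genes tested, 54 were above 16 on all 16 arrays, and Rpl21 and Rpl22l1 on fewer. Some ribosomal proteins, Rpl5 and Rpl11 among them, had no probe under their symbol and are not covered.

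A ribosome joins a small subunit, which reads the messenger RNA, to a large subunit, which links the amino acids, and nearly all of its proteins are made in equal numbers. Their messenger RNAs share a start made of pyrimidines, the 5′ terminal oligopyrimidine (TOP) motif, through which the growth kinase mTOR controls how much of them is translated. Ribosomal protein messenger RNAs are known to travel into the axons of sensory neurons. HIF-1α, made at all times and destroyed while oxygen is plentiful, drives the transcription of glycolysis genes and others when oxygen runs low.

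The cultures were dorsal root ganglia of CD-1 mouse embryos at embryonic day 13, plated as spots, so that neurons and the other cells of the ganglion were read together. On day 4 in culture all of them received a lentivirus, with a control hairpin (shRNA), a hairpin against HIF-1α (knockdown) or human HIF-1α in the FUGW vector (overexpression). A blade severed the axons on day 7. RNA came from uninjured cultures of that day, or was collected 3 h or 12 h after axotomy. In all there were 16 arrays, 6 control, 6 knockdown and 4 overexpression arrays, 2 for each construct and time, except that uninjured and 12 h overexpression had 1 each. The control hairpin served as the control of both constructs, and no empty FUGW vector was analysed here. Whether arrays of a group stem from different cultures or embryos is not in the labels, and the p-values may therefore reflect technical spread alone. A batch of virus or of cultures and the construct cannot be told apart.

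Facts of the whole table touch these results in several ways. Each array had 47.8% to 47.9% of its probes above 16, and the deposited values had the form of a common distribution. A shift of all messenger RNA together could therefore not be seen. The mouse Hif1a probe was dim, with intensities of 21.3 to 42.7 in control, -7.15 to 1.40 in knockdown and -5.20 to 5.22 in overexpression. It was lower in both (limma, adjusted p = 1.71e-07 and 8.49e-06), and whether it reads the human sequence was not tested. The summed intensity of the 10 tested of 12 listed sensory neuron markers was 71814 to 79040 in control, 55115 to 62363 in knockdown and 48341 to 52361 in overexpression, with Nefl above 16 on no array. That of the 4 tested of 8 Schwann cell and satellite glia markers was 17276 to 20223, 8026 to 9742 and 8431 to 9770, with Fabp7 above 16 on no array. The 3 tested of 8 fibroblast markers summed to 81.7 to 135, 342 to 487 and 183 to 239, with Col1a1, Col3a1 and Lum above 16 on no array. The 5 tested of 6 embryonic and adult erythroid markers summed to 114 to 1091, 2188 to 3072 and 1584 to 3515, with Alas2 above 16 on no array. Sums were low for macrophage markers (3 tested of 7), at 94.3 to 137, 117 to 154 and 196 to 283, with Ptprc, Itgam and Cd14 above 16 on no array. They were lower still for endothelial markers (4 tested of 6), at 14.8 to 52.8, 85.2 to 138 and 55.2 to 87.7, with Cdh5 and Emcn above 16 on no array. A sum does not speak for each of its markers. Of the 3 fibroblast markers, Dcn (1.13) and Pdgfra (1.84) were higher and Twist2 (-0.42) lower in knockdown on the log2 scale, and in overexpression Twist2 (1.20) was higher and Dcn (-0.60) and Pdgfra (-0.35) lower. Of the 10 neuron markers 1 was higher and 5 lower in knockdown, and 2 were higher and 7 lower in overexpression. Of the 4 glial markers 0 were higher and 2 lower in knockdown, and 1 was higher and 2 lower in overexpression. The shares of all genes tested were 31.3% higher and 28.3% lower in knockdown, and 25.8% and 29.4% in overexpression. Marker sums differed between constructs in the same arrays as the values below, and their part in those was not tested. In such bulk samples fewer cells of a type and less RNA per cell cannot be told apart.

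Ribosomal protein messages differed from control in both directions with either construct. In knockdown, 15 of the 56 members were higher and 19 lower than control, and 22 did not pass the test (limma, mean of the 3 times, Benjamini-Hochberg adjusted p under 0.05). That is 60.7% of members called, against 59.7% of all genes tested (31.3% higher and 28.3% lower). In overexpression, 14 were higher, 13 lower and 29 did not pass, or 48.2% of members against 55.3% of all genes (25.8% higher and 29.4% lower). The count of 14 fell to 9 without either uninjured control replicate 1 or the 12 h overexpression array. Between overexpression and knockdown, 18 were higher in overexpression, 17 lower and 21 did not pass, or 62.5% of members against 62.7% of all genes (28.8% higher and 34.0% lower). These shares lie near or under their backgrounds.

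The middle of the family stayed near that of all genes. The median log2 difference of the members was 0.018 in knockdown, beside -0.002 for all genes tested, and -0.013 in overexpression, beside -0.022. The median size of a difference, whatever its sign, was 0.25 in knockdown and 0.19 in overexpression, beside 0.24 in both for all genes. The summed intensity of the tested members was 426051 to 463684 in control, 417426 to 453754 in knockdown and 433580 to 451008 in overexpression. These ranges overlap, and the members held 3.73% to 4.15% of all positive signal on every array. Groups of arrays did not overlap for 21 members in knockdown against control (37.5%, background 38.9%), for 21 in overexpression against control (37.5%, background 41.7%), and for 26 in overexpression against knockdown (46.4%, background 48.1%).

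**Figure D1:**
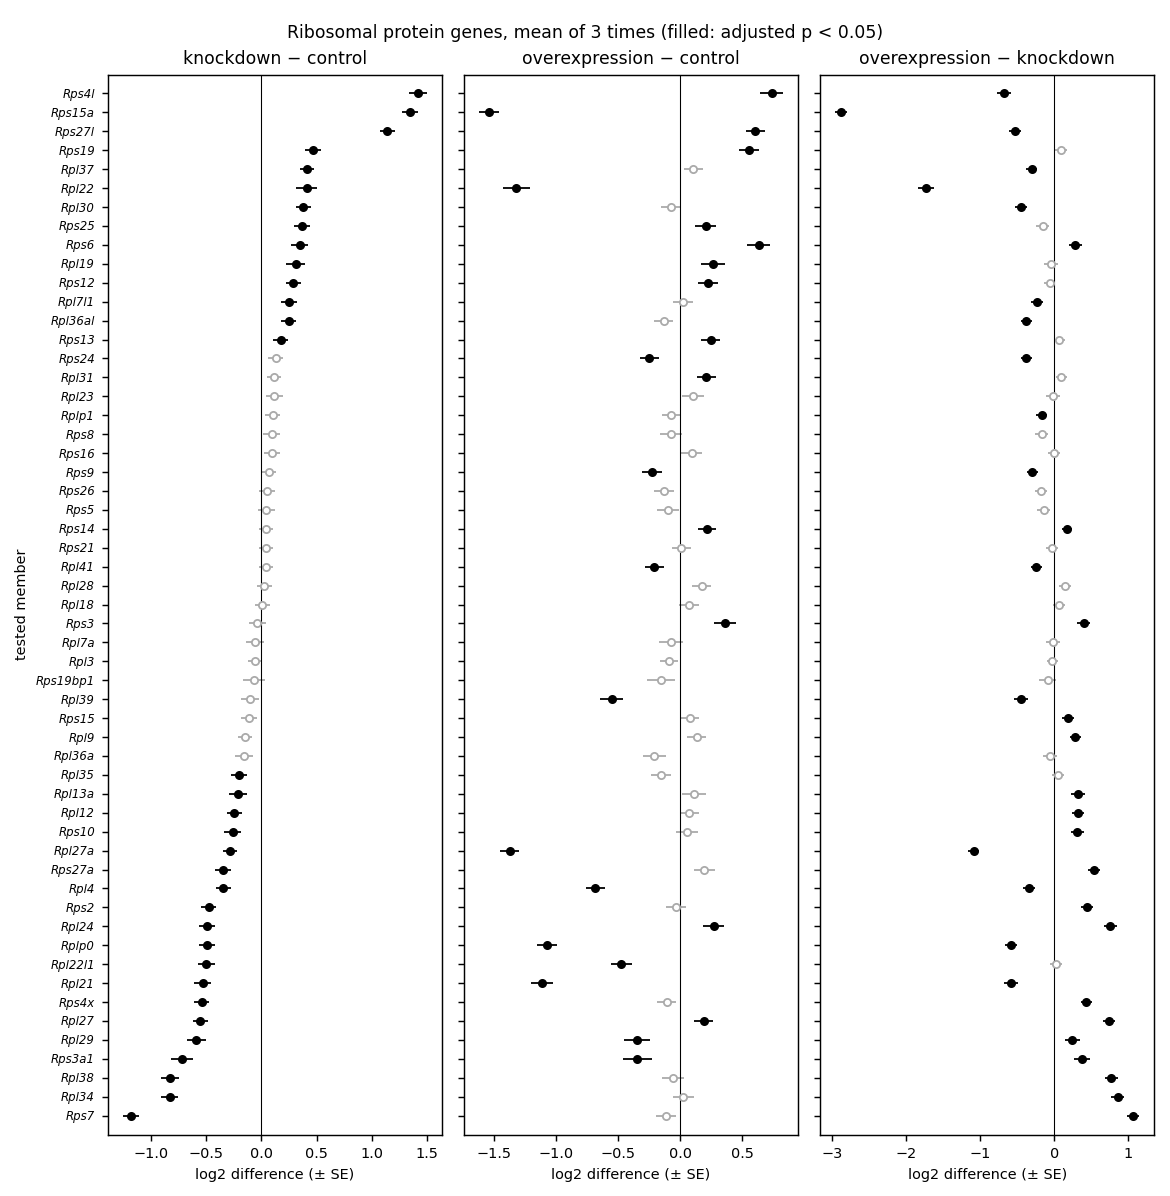
Log2 difference of 55 of the 56 tested members, as the mean of the 3 times, with its standard error, for knockdown minus control, overexpression minus control and overexpression minus knockdown; members are ordered by the knockdown difference in all 3 panels, filled points have an adjusted p under 0.05, and the horizontal scales differ between panels. Both directions are filled in every panel, from -1.18 (Rps7) to 1.42 (Rps4l) in knockdown and from -1.54 (Rps15a) to 0.73 (Rps4l) in overexpression.

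The 2 subunits differed in their counts without a test of that difference. Of 25 large subunit genes, 4 were higher and 11 lower in knockdown, with a median of -0.15, and 4 were higher and 7 lower in overexpression, with a median of -0.06. Of 23 small subunit genes, 7 were higher and 6 lower in knockdown, with a median of 0.05, and 8 were higher and 4 lower in overexpression, with a median of 0.05. Of the 6 paralogs and binding proteins, 4 were higher and 1 lower in knockdown, and 2 higher and 1 lower in overexpression. Beside these counts, 31.3% of all genes were higher and 28.3% lower in knockdown, and 25.8% and 29.4% in overexpression. In all, 4 members reached a 2-fold difference in knockdown (7.14%, background 8.72%) and 5 in overexpression (8.93%, background 8.28%). Those were Rps4l, Rps15a, Rps27l and Rps7 in knockdown, and Rps15a, Rpl27a, Rpl22, Rpl21 and Rplp0 in overexpression. Direction went with probe level in overexpression. Of 35 members with a mean log2 level of 12 or more, 11 were higher and 4 lower (median 0.07), with 0 at 2-fold. Of 21 members under 12, 3 were higher and 9 lower (median -0.16), with all 5 at 2-fold. In knockdown these counts were 9 and 9, and 6 and 10, with 2 at 2-fold in each. The part of probe level in these differences was not tested.

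Rps15a, a small subunit protein, was the member with the widest spread between constructs. Its intensity was 411 to 488 in control (median 447), 978 to 1424 in knockdown (median 1247), and 79.3 uninjured, 113 and 122 at 3 h and 141 at 12 h in overexpression. All knockdown arrays lay above and all overexpression arrays below all control arrays. Rps15a was 2.53-fold higher in knockdown (log2 difference 1.34 ± 0.07, SE; limma adjusted p = 7.23e-13) and 2.90-fold lower in overexpression (-1.54 ± 0.08; 1.23e-12). Overexpression was 7.35-fold below knockdown, with a log2 difference of -2.88 ± 0.08. An offset of 50 was added before the log2, so a fold change from the fit understates the ratio of dim probes such as this one. With a floor of 16 in place of the normexp step, the log2 difference between overexpression and knockdown was -3.50.

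Rpl22, a large subunit protein that also binds structured RNA, gave the other large opposite pair. Its intensity was 1281 to 1568 in control (median 1376), 1449 to 2133 in knockdown (median 1997), and 500, 569, 417 and 557 in overexpression. The overexpression arrays all lay below control, while the lowest knockdown array lay within the control range. The log2 difference was 0.41 ± 0.09 in knockdown (limma adjusted p = 0.000767) and -1.32 ± 0.11 in overexpression (adjusted p = 1.31e-09). Its paralog Rpl22l1, known in mouse to be held down by Rpl22, was dim, at 27.7 to 54.5 in control, 2.08 to 19.3 in knockdown and 6.47 to 24.3 in overexpression. It was above 16 on all 6 control arrays but only 1 of 6 knockdown and 2 of 4 overexpression arrays. It was lower in both, with log2 differences of -0.50 ± 0.07 and -0.47 ± 0.08, so that Rpl22 and Rpl22l1 were both below control in overexpression.

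**Figure D2:**
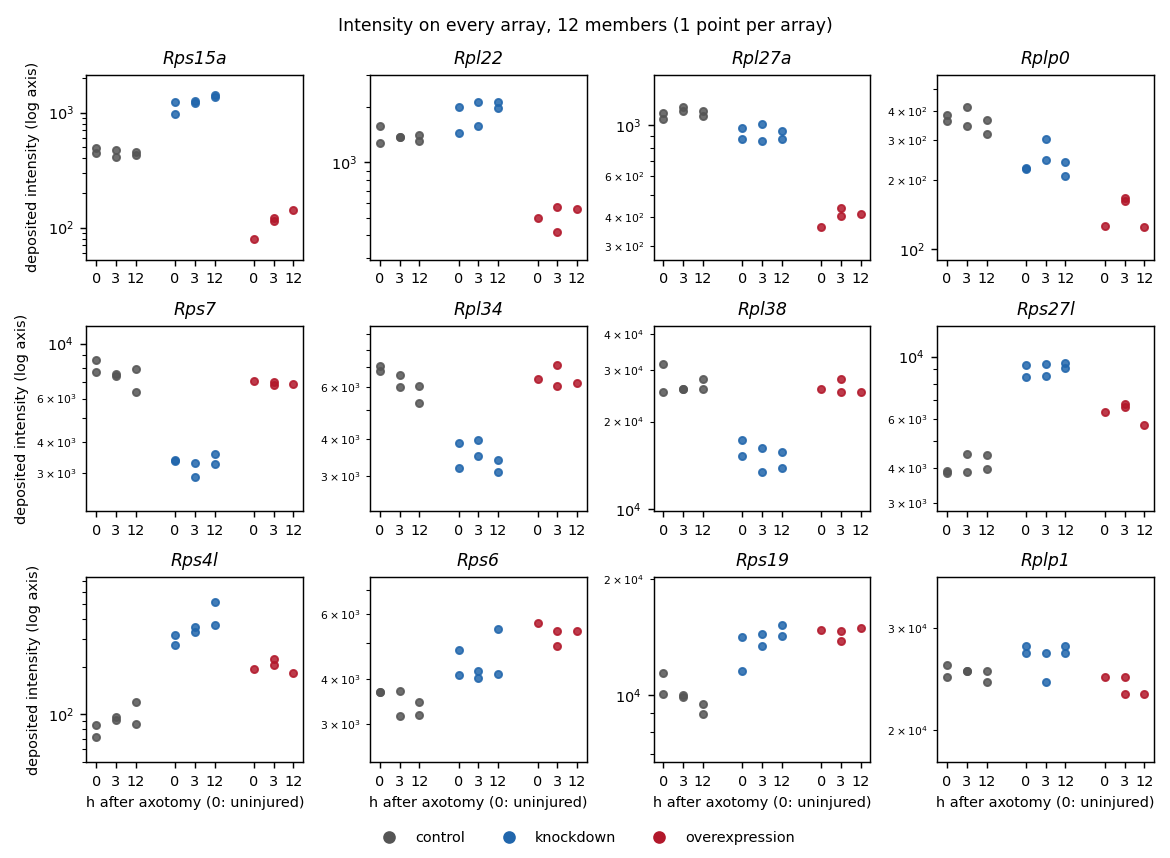
Deposited intensity of 12 members on every array (log axis), with 1 point per array, by construct (control grey, knockdown blue, overexpression red) and hours after axotomy (0 is uninjured); vertical scales differ between panels. The groups do not overlap for Rps15a in any pair of constructs, and Rps7, Rpl34 and Rpl38 are low in knockdown alone. Rplp1 overlaps in all constructs, in knockdown through 1 array.

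A set of genes was low in knockdown and near control in overexpression. Rps7, a small subunit protein that can bind and block Mdm2, had intensities of 6361 to 8593 in control (median 7595), 2901 to 3592 in knockdown (median 3320), and 7058, 6803, 7033 and 6877 in overexpression. The knockdown arrays all lay below the others, and the overexpression arrays lay within the control range. Rps7 was 2.27-fold lower in knockdown (log2 difference -1.18 ± 0.07; limma adjusted p = 6.35e-12), and its difference in overexpression was -0.12 ± 0.08 (adjusted p = 0.243). Overexpression was 1.06 ± 0.08 above knockdown (adjusted p = 2.92e-10).

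Rpl34, a large subunit protein, read 5308 to 7058 in control (median 6301), 3109 to 3972 in knockdown (median 3447), and 6390, 6018, 7094 and 6184 in overexpression. Rpl38, a large subunit protein known in mouse for its part in translating Hox messenger RNAs, read 25315 to 31498 in control (median 25862), 13355 to 17213 in knockdown (median 15455), and 25862, 27967, 25315 and 25315 in overexpression. For both, the knockdown arrays were below all others. The log2 differences in knockdown were -0.83 ± 0.07 for Rpl34 (limma adjusted p = 3.85e-09) and -0.83 ± 0.08 for Rpl38 (adjusted p = 7.01e-09). In overexpression they were 0.02 ± 0.09 and -0.06 ± 0.09 (adjusted p = 0.830 and 0.613). Rps4x (-0.54 in knockdown, -0.11 in overexpression) and Rps2 (-0.48 and -0.03), both of the small subunit, showed the same order, called in knockdown and not in overexpression.

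Rpl27 and Rpl24 of the large subunit were on opposite sides of control. Rpl27 read 8666 to 9658 in control (median 9069), 5576 to 6598 in knockdown (median 6381), and 10276, 10209, 9335 and 11183 in overexpression. Its knockdown arrays were below all others, while 1 of the 4 overexpression arrays lay within the control range. The log2 difference was -0.55 ± 0.07 in knockdown (limma adjusted p = 4.22e-07) and 0.19 ± 0.08 in overexpression (adjusted p = 0.0490), a call that lay at the threshold. Rpl24 gave -0.49 ± 0.07 and 0.27 ± 0.08. Rps27a, whose protein is made fused to ubiquitin, fell by 0.34 ± 0.07 in knockdown; in overexpression its difference was 0.19 ± 0.09 (adjusted p = 0.0590), and 0.54 separated overexpression from knockdown.

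Another set was lowest in overexpression. Rpl27a, a large subunit protein, read 1070 to 1203 in control (median 1143), 859 to 1011 in knockdown (median 909), and 361, 436, 404 and 411 in overexpression. The stalk protein Rplp0, which helps elongation factors to dock on the ribosome, read 320 to 418 in control (median 363), 208 to 303 in knockdown (median 233), and 127, 167, 162 and 125 in overexpression. For both genes the 3 constructs did not overlap, with control highest and overexpression lowest. The log2 difference of Rpl27a was -0.28 ± 0.07 in knockdown (limma adjusted p = 0.00107) and -1.38 ± 0.08 in overexpression (3.10e-12). That of Rplp0 was -0.49 ± 0.07 (4.16e-06) and -1.07 ± 0.08 (4.64e-10). Rplp1, the partner of Rplp2 on the same stalk, read 24182 to 25862, 24182 to 27967 and 23125 to 24660. Its differences from control of 0.10 and -0.07 did not pass. The overlap of knockdown with the others rests on 1 array, at 24182, with 27206 to 27967 on the rest. Overexpression was lower than knockdown (-0.17, limma adjusted p = 0.0470), a call lost in 18 of 25 other settings.

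Rpl21 of the large subunit followed the same order on a dim probe. Its intensity was 80.2 to 126 in control (median 99.8), 40.3 to 68.8 in knockdown (median 44.5), and 3.71, 14.2, 8.14 and 17.0 in overexpression, where 1 of 4 arrays was above 16. No construct overlapped another. The log2 difference was -0.53 ± 0.08 in knockdown and -1.12 ± 0.09 in overexpression (limma adjusted p = 4.61e-06 and 9.17e-10). With a floor of 16 and no normexp step, the values of Rpl21 were larger, down to -2.61 in overexpression, and those of Rpl22l1 down to -1.31 in knockdown and -1.25 in overexpression, since the offset shrinks differences of dim probes. Rpl4, a large subunit protein with a long arm in the exit tunnel, was lower in both (-0.35 ± 0.07 and -0.68 ± 0.08). Rpl39, another protein of the exit tunnel, was lower in overexpression (-0.55 ± 0.09, adjusted p = 2.39e-05) and gave -0.10 ± 0.08 in knockdown (adjusted p = 0.281).

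Both members with the largest rises in knockdown apart from Rps15a are paralogs. Rps27l, a close relative of Rps27 that is a known p53 target, read 3831 to 4495 in control (median 3942), 8485 to 9468 in knockdown (median 9208), and 6340, 6764, 6598 and 5723 in overexpression. Rps4l, under the older symbol Rps4y2 in the file, read 71.1 to 120 in control (median 89.4), 274 to 516 in knockdown (median 344), and 192, 206, 225 and 182 in overexpression. For both, the constructs did not overlap, with control lowest and knockdown highest. Rps27l was 2.20-fold higher in knockdown (log2 difference 1.14 ± 0.07; limma adjusted p = 5.23e-12) and 1.52-fold higher in overexpression (0.60 ± 0.08; 1.14e-06). Rps4l was 2.67-fold and 1.66-fold higher (1.42 ± 0.08 and 0.73 ± 0.09). Its relative Rps4x went the other way in knockdown, as given above. Of the other paralogs, Rpl36al (0.25 ± 0.07, adjusted p = 0.00268) and Rpl7l1 (0.25 ± 0.07, 0.00389) were higher in knockdown, and Rps19bp1 did not pass in any of the 3 comparisons of constructs.

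Rps6 and Rps19 of the small subunit were higher with both constructs. Rps6, the ribosomal protein that S6 kinase phosphorylates, read 3159 to 3693 in control (median 3565), 4021 to 5460 in knockdown (median 4170), and 5672, 4903, 5404 and 5411 in overexpression. Rps19, mutated in Diamond-Blackfan anaemia, read 8922 to 11404 in control (median 9947), 11530 to 15154 in knockdown (median 14195), and 14779, 13775, 14687 and 14917 in overexpression. For both genes all arrays of either construct lay above all control arrays. The log2 differences of Rps6 were 0.35 ± 0.08 in knockdown and 0.63 ± 0.09 in overexpression (limma adjusted p = 0.000624 and 4.18e-06). Those of Rps19 were 0.47 ± 0.07 and 0.56 ± 0.08 (6.14e-06 and 5.35e-06). Rps3, which lines the entry of the messenger RNA, was higher in overexpression, by 0.36 ± 0.09 (adjusted p = 0.00196), and gave -0.04 ± 0.08 in knockdown.

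Other members had smaller differences. Rpl37 (0.41), Rpl30 (0.38), Rps25 (0.36) and Rpl19 (0.31) rose in knockdown, and of these Rps25 (0.21) and Rpl19 (0.27) also rose in overexpression on the log2 scale. Rps3a1 (-0.72 in knockdown, -0.35 in overexpression) and Rpl29 (-0.59 and -0.35) fell with both constructs. Several of the smaller calls were not stable. Across 25 other settings, in most cases with 1 array left out, the call was lost in 14 for Rpl27 in overexpression (limma adjusted p up to 0.263), and in 10 for Rps25 (0.186) and 7 for Rpl19 (0.0743) in overexpression. The overexpression call of Rpl24 was lost without the 12 h overexpression array (adjusted p = 0.137). That of Rps3a1 was lost in 3 settings, without that array (0.0830), without the uninjured overexpression array (0.163) and with a floor of 16 in place of normexp (0.0607). That of Rpl29 was lost in 2, without the uninjured overexpression array (0.0570) and with the mean of its kept probes (0.0689), and that of Rps3 with the mean of its 2 probes (0.0851).

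Knockdown and overexpression share their control arrays, so their directions are not independent. The direct contrast of overexpression and knockdown does not use them, and there Rps15a (-2.88), Rpl22 (-1.73), Rpl27a (-1.09) and Rps7 (1.06) stood outermost.

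The members with several probes give a check within genes. Of the 56 genes, 11 had more than 1 probe above the filter, and the text above uses the one with the highest mean. The probes of a gene pointed the same way in 6 of 11 genes in knockdown and in 7 of 11 in overexpression. Their log2 differences lay a median of 0.37 and 0.26 apart. Beside these, 56.8% and 53.3% of all kept probes were called in knockdown and overexpression.

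For Rpl38, both probes were lower in knockdown, and the dimmer one by more (-1.73 ± 0.08, against -0.83 ± 0.08). In overexpression the dimmer probe was also lower (-0.23 ± 0.09, adjusted p over probes 0.0393), while the probe used did not pass (-0.06 ± 0.09). Both probes of Rpl21 were lower with both constructs (-0.53 and -0.45 in knockdown, -1.12 and -0.89 in overexpression). Both of Rps27a were lower in knockdown (-0.34 and -0.27), and both of Rps9 lower in overexpression (-0.23 and -0.31). Calls of both probes were thus the same for these 4 genes in the comparisons given, except for Rpl38 in overexpression. For Rps19 the dimmer probe, at 52.1 to 99.5, gave -0.07 ± 0.07 and 0.06 ± 0.09 and passed in neither, so the rise of Rps19 rests on 1 probe. The dimmer probe of Rpl29, at 4.04 to 33.9, did not pass either (-0.14 and 0.01). With the mean of both probes the call of Rpl7l1 in knockdown was lost (0.09, adjusted p = 0.258).

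Probes disagreed for Rpl31, Rps24 and Rpl23. In overexpression the probe used for Rpl31 was higher (0.21 ± 0.07) and the other lower (-0.55 ± 0.09), the only opposite pair of calls among the 11 genes in any of the 3 comparisons of constructs. With the mean of both probes the call of Rpl31 in overexpression turned to -0.17. In knockdown the other probe of Rpl31 was lower (-0.25 ± 0.07), and the probe used did not pass (0.12 ± 0.06). For Rps24 the probe used gave 0.13 ± 0.07 in knockdown (adjusted p over probes 0.112), and the other -0.45 ± 0.07 (2.95e-05). In overexpression both probes of Rps24 were lower (-0.25 and -0.60). For Rpl23, 1 of 3 probes was lower in knockdown (-0.38 ± 0.08) while the others gave 0.12 and 0.14 and did not pass. In overexpression the same probe was lower (-0.30 ± 0.09), and the others gave 0.10 and 0.13 and did not pass. Ribosomal protein genes have many processed pseudogenes and alternative ends, and probe sequences were not used here, so which transcripts each probe reads was not tested.

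**Figure D3:**
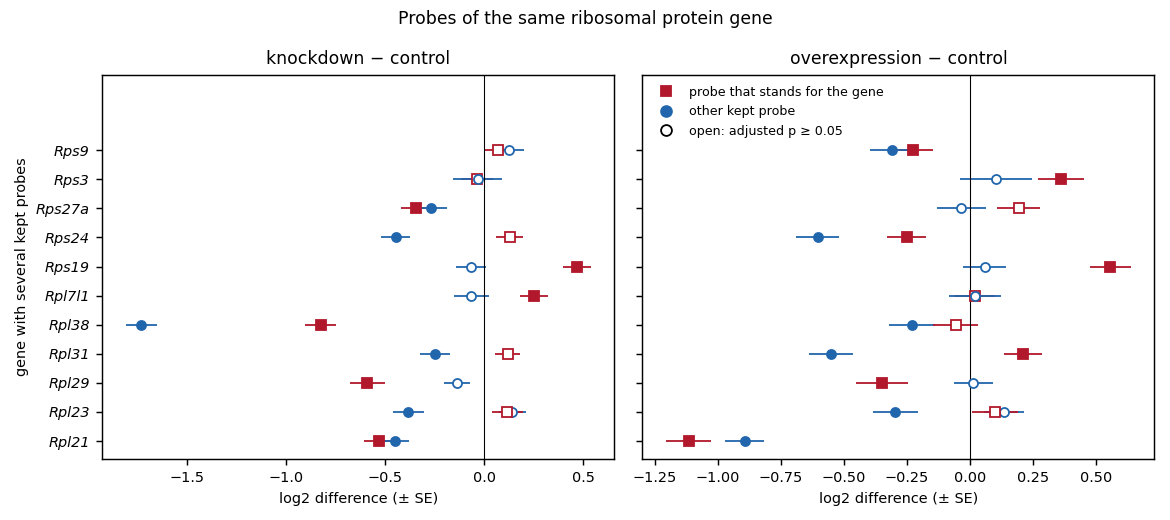
Log2 difference with standard error of each kept probe of the 11 genes with several, in knockdown minus control and overexpression minus control, as the mean of the 3 times; squares are the probe that stands for the gene, circles the others, and open symbols did not pass. The probes of Rpl38 both lie left of 0 in knockdown, and those of Rpl31 lie on opposite sides of 0 in overexpression.

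The differences between constructs were present before the cut. In uninjured cultures 5 members were higher and 14 lower in knockdown, or 33.9% of members against 40.3% of all genes. At 3 h these were 7 and 15 (39.3%, background 43.9%), and at 12 h 14 and 12 (46.4%, background 42.3%). In overexpression 5 were higher and 10 lower in uninjured cultures (26.8%, background 35.7%), 9 and 9 at 3 h (32.1%, background 38.8%), and 5 and 8 at 12 h (23.2%, background 34.5%). The uninjured and 12 h overexpression values rest on 1 array each, which borrows its spread from the other groups.

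In knockdown 11 members were lower at each of the 3 times, namely Rpl21, Rpl22l1, Rpl27, Rpl29, Rpl34, Rpl38, Rpl4, Rplp0, Rps2, Rps4x and Rps7 (19.6%, background 13.9%). Rpl37, Rps15a, Rps27l and Rps4l were higher at each time (7.14%, background 16.5%). In overexpression Rpl21, Rpl22, Rpl22l1, Rpl27a, Rpl39, Rpl4, Rplp0 and Rps15a were lower at each time (14.3%, background 12.2%). Rps19, Rps27l, Rps4l and Rps6 were higher at each time (7.14%, background 12.0%). Rps15a gave 1.13 uninjured, 1.36 at 3 h and 1.53 at 12 h in knockdown, and -1.87, -1.47 and -1.28 in overexpression, on the log2 scale. Rps7 gave -1.25, -1.25 and -1.03 in knockdown.

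**Figure D4:**
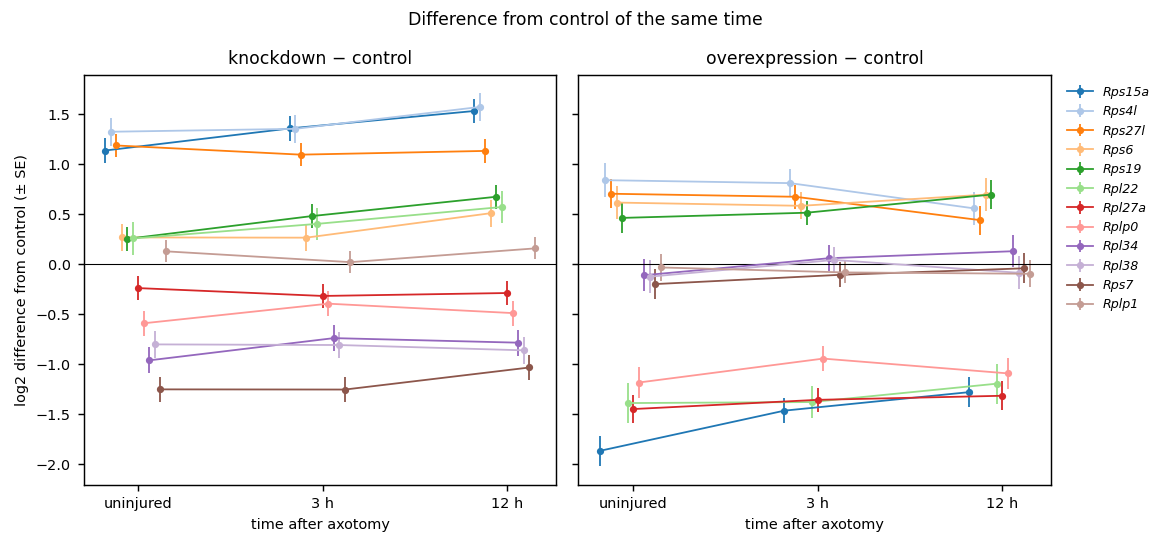
Log2 difference from the control of the same time, with standard error, for 12 members in uninjured cultures and 3 h and 12 h after axotomy, in knockdown and in overexpression; points are shifted sideways for clarity, and overexpression has 1 array in uninjured cultures and at 12 h. Rps7 lies between -1.25 and -1.03 at all 3 times in knockdown, and Rps15a between -1.87 and -1.28 in overexpression.

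Axotomy itself changed no ribosomal protein message past the threshold. Averaged over the 3 constructs, 0 of 56 members were called at 3 h (background 0.0359%), 0 at 12 h (background 0.538%) and 0 between 3 h and 12 h (background 0.242%). At an unadjusted p under 0.05 limma gave 1 member at 3 h (1.79%, background 7.70%), 5 at 12 h (8.93%, background 12.4%) and 7 between the times (12.5%, background 11.7%). The log2 differences of the members lay between -0.14 and 0.18 at 3 h and between -0.29 and 0.25 at 12 h. The median was 0.010 at 3 h and -0.046 at 12 h, where 38 of 56 members were below 0 (67.9%, against 48.7% of all genes). The lowest at 12 h was Rpl7a (-0.29 ± 0.10, adjusted p = 0.183) and the highest Rps15a (0.25 ± 0.08, adjusted p = 0.183). Within each construct alone limma called 0 members at 3 h and 0 at 12 h. The shares of all genes were 0% and 0.0269% in control, 0.0269% and 0.475% in knockdown, and 0.0269% and 0% in overexpression. At an unadjusted p under 0.05 0 and 3 members passed in control (0% and 5.36%, background 6.13% and 7.17%), and 1 and 6 in knockdown (1.79% and 10.7%, background 6.98% and 11.5%). In overexpression 1 and 1 passed (1.79% each, background 8.20% and 7.78%).

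The response to the cut did not differ between constructs past the threshold for any member. The F test over the 4 contrasts of construct and injury called 0 of 56 members and 0 of all genes (background 0%). At an unadjusted p under 0.05 it gave 1 member, Rps3a1 (1.79%, background 6.65%). Its adjusted p was 0.715, and that of Rps15a was 0.786. These results do not show that the message levels were unmoved by injury, since whole cultures were read and a change in axons alone was not measured apart.

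Ribosomal protein promoters have a known layout that can be set beside these values. Their start sites sit in a run of pyrimidines, and many carry a site for factors of the ETS family. RefSeq promoters (GRCm38.p6) were matched for 45 of the 56 tested members, and 11 were not matched. The windows below run from 40 bases before to 20 bases from the start, and for genes with several starts the one with the longest run is given. They are shown for members from each pattern above, 5′ to 3′ on the gene's strand, with the longest pyrimidine run in capitals. Rps7, Rpl34 and Rpl38 were lowest in knockdown, Rps15a, Rpl22, Rpl27a and Rplp0 were lowest in overexpression, and Rps27l, Rps6 and Rps19 were higher with both constructs.
Rps7: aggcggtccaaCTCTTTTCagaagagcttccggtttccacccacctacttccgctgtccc
Rpl34: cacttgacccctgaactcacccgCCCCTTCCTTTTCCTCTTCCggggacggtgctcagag
Rpl38: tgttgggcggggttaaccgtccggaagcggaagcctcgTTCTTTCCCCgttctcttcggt
Rps15a: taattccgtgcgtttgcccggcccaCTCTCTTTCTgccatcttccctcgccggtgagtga
Rpl22: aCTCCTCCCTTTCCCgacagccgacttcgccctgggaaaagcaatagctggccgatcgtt
Rpl27a: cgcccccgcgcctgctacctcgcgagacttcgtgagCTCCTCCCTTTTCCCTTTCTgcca
Rplp0: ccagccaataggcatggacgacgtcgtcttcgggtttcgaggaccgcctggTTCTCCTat
Rps27l: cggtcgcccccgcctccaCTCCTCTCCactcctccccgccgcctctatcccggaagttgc
Rps6: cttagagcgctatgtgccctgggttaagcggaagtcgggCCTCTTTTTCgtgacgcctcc
Rps19: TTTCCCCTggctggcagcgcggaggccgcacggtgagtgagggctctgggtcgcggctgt
The windows are at Rps7 chr12:28635934-28635993 on the minus strand, Rpl34 chr3:130730318-130730377 on the minus strand, Rpl38 chr11:114668540-114668599 on the plus strand, Rps15a chr7:118116128-118116187 on the minus strand, Rpl22 chr4:152325686-152325745 on the plus strand, Rpl27a chr7:109519155-109519214 on the plus strand, Rplp0 chr5:115559427-115559486 on the plus strand, Rps27l chr9:66946046-66946105 on the plus strand, Rps6 chr4:86857348-86857407 on the minus strand, and Rps19 chr7:24884636-24884695 on the plus strand.

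Runs of at least 7 pyrimidines lay in this 60-base window in 31 of 45 members (68.9%), against 39.0% of 27025 genes. A run was counted anywhere in the window and need not cover the start. In the windows above, the runs of Rps7, Rps15a, Rpl22, Rps27l and Rps19 lie before the start and that of Rplp0 after it. The share is therefore no count of TOP motifs. In the window of 300 bases (250 before and 50 after the start), CCGGAAG, the ETS core, lay on either strand in 18 of 45 members (40%, all genes 9.93%). A hypoxia response element core, ACGTG or GCGTG on either strand, lay in 30 of 45 (66.7%, all genes 46.7%). It overlaps the E-box CACGTG, which lay in 5 of 45 (11.1%, all genes 8.09%), and TATAAA lay in 6 (13.3%, all genes 15.7%). All genes are here the 27025 genes with a promoter, expressed or not, and not the 11151 genes tested. Shares among the tested genes were not computed, so an excess over all genes is not particular to the members. A match describes these letters and is no site of binding.

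Medians of the members with and without each feature are given as descriptions, with no test. The median log2 difference in knockdown was 0.01 for members with a pyrimidine run and -0.05 for those without, and in overexpression 0.02 and 0.03. For the hypoxia response element core the medians with and without it were -0.06 and 0.01 in knockdown and 0.06 and -0.06 in overexpression. For the ETS core they were -0.03 and -0.04 in knockdown, and -0.01 and 0.07 in overexpression. For the E-box they were 0.12 and -0.05 in knockdown, and 0.11 and -0.05 in overexpression. The 6 members with TATAAA had medians of -0.32 and -0.51, against 0.03 and 0.07 for the others. These members are Rpl22, Rpl22l1, Rpl36a, Rpl39, Rplp0 and Rps2. Not all of them followed the medians, since Rpl22 was higher in knockdown (0.41) and Rps2 gave -0.03 in overexpression. Rps7, Rpl34 and Rplp0 hold a hypoxia response element core, while Rps15a, Rpl22, Rpl27a and Rpl38 do not. Genes with and without it thus lay in the sets that were low in knockdown and low in overexpression.

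Other genes of the ribosome and its making were read from lists of known members. Counts of these lists are descriptions, and no test of a list was run. For every list the background was 31.3% of all genes higher and 28.3% lower in knockdown. In overexpression it was 25.8% higher and 29.4% lower. Of the mitochondrial ribosomal proteins, which build the separate ribosome of mitochondria, 71 were tested. In knockdown 13 were higher and 30 lower (median -0.07), and in overexpression 10 were higher and 32 lower (median -0.19), with 73.2% of them below 0. In overexpression 50% of the cytosolic members and 52.8% of all genes tested were below 0. Rpsa, a small subunit protein outside the symbol rule, was lower in both (-0.34 and -0.30), and Rack1 passed in neither. Both probes were dim, around the cutoff of 16. Rpsa read 21.1 to 48.0 in control, 4.89 to 24.2 in knockdown and 8.67 to 31.2 in overexpression. Rack1 read 2.45 to 25.6, 11.6 to 29.0 and 5.57 to 25.6, so neither value says much of these messages. Of 13 other TOP messenger RNAs, 2 were higher and 5 lower in knockdown, and 4 higher and 2 lower in overexpression. Among them Npm1, a chaperone of the nucleolus, gave -0.20 in knockdown and 0.83 in overexpression, and Hnrnpa1, a nuclear RNA-binding protein, -0.68 and -0.09, the last not passing.

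Of 29 ribosome biogenesis genes, 7 were higher and 8 lower in knockdown (median 0.12), and 6 higher and 13 lower in overexpression (median -0.19). Pes1, needed to process the large subunit's RNA, was 0.30 ± 0.09 higher in knockdown and fell by 1.02 ± 0.10 in overexpression. Ncl, nucleolin, gave 0.53 and -0.57, and Nop56, a core protein of box C/D particles, -0.83 and -0.64. Of 10 genes of RNA polymerase I and its factors, which make ribosomal RNA, 4 were higher and 3 lower in knockdown, and 3 higher and 2 lower in overexpression. Rrn3, the factor that brings the polymerase to its promoter, was -1.18 ± 0.08 in knockdown and -0.27 ± 0.09 in overexpression. Cd3eap, a subunit of the polymerase, was 1.12 ± 0.09 in overexpression and did not pass in knockdown (-0.02).

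Of 18 genes that control ribosomal proteins through mTOR and MYC, 6 were higher and 5 lower in knockdown, and 7 higher and 7 lower in overexpression. Known brakes of this pathway differed in both directions. Ddit4, an inhibitor of mTOR complex 1, rose by 1.69 ± 0.07 and 1.12 ± 0.08, Eif4ebp1, which blocks cap-dependent translation, by 1.43 ± 0.09 and 1.07 ± 0.11, and Sesn2, a sestrin, by 1.03 ± 0.08 and 0.72 ± 0.09. Deptor, an inhibitor that binds mTOR, was lower with both (-0.27 and -0.39), and the sestrin Sesn1 was lower in overexpression (-0.9996) and did not pass in knockdown (0.08). Mxd4, a MYC antagonist, was higher with both (0.99 and 0.59). Mlst8, a subunit of both mTOR complexes, fell by 0.24 ± 0.07 and 0.87 ± 0.08. Of 8 genes of the p53 checkpoint that senses free ribosomal proteins, 6 were higher and 1 lower in knockdown, and 5 higher and 1 lower in overexpression. Of these the smallest p in both comparisons belonged to the p53 targets Phlda3 (4.85 in knockdown and 3.84 in overexpression), Pidd1 (3.60 and 1.66), Cdkn1a, a cell cycle inhibitor (1.83 and 1.90), and Ccng1 (1.20 and 1.75). Mdm2, the ligase those proteins bind, rose by 0.90 ± 0.07 and 1.12 ± 0.08. Some of these genes were known from earlier results of the same data, and both comparisons share controls, so their counts are descriptions.

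**Figure D5:**
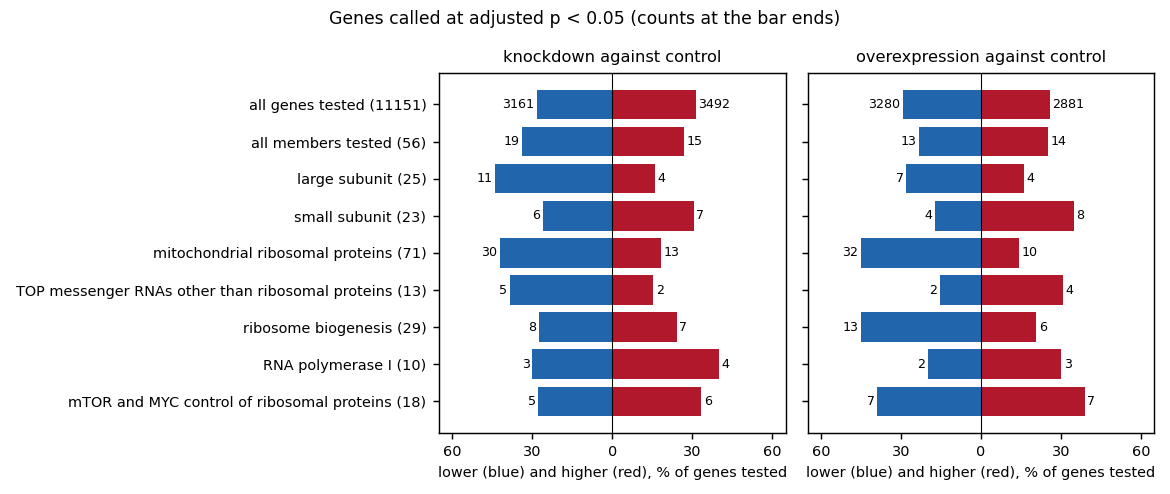
Share of tested genes called higher (red, to the right) and lower (blue, to the left) than control at an adjusted p under 0.05, for all genes tested, the 56 members, their subunits and 5 related lists, with the number tested in parentheses and counts at the bar ends. The 56 members lie close to all genes (15 higher and 19 lower in knockdown, 14 and 13 in overexpression), and mitochondrial ribosomal proteins have 32 lower and 10 higher in overexpression.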

How the data were processed

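RNA of the cultures was read on 16 arrays of the Illumina Mouse Ref-8 BeadChip. GenomeStudio appears in the submitters' processing notes; its version is not given in the sources used here. Per the values, the deposited intensity values of 25697 probes ran from -21.7 to 40784.5, and 27.2% lay below 0, as after subtracting background and normalizing arrays to each other. A second deposited table gave the probes' symbols; its 32 columns of signal and detection match no sample label and were not used. Symbols were updated with RefSeq genes of GRCm38.p6 (20733 current, 3872 updated, 1092 kept).

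With limma 3.58.1 (R 4.3.3), intensities went through normexp (offset 50), quantile normalization and log2. Probes over 16 on 2 or more of the 16 arrays were kept (15086), and 11151 genes were each read by their probe of highest mean. The fit held a mean for each of 9 groups, with 7 residual and 13.2 prior degrees of freedom, and p-values were Benjamini-Hochberg adjusted over all genes of a comparison, or over all kept probes where probes of a gene are compared. The number of arrays limits the precision. By rule, the text names up to 8 called members with the largest rise and 8 with the largest fall in each averaged comparison, the paralogs, Rps6, Rps19, the stalk proteins, members with opposite probe calls, and, by smallest p, up to 4 genes of each list. Rpl5 and Rpl11 were in the rule too, but no probe carried their symbols. Any further gene was chosen after its values were seen. The members and lists were chosen with earlier results of these data known. The fit was tested on simulated data. Alternatives tried were other normalization, offsets, filters, probe rules, a replicate block and leaving out each array. Of the members the rule selects, 1 is not reported here by name, nor is 1 marker. Many other genes of the related and marker lists enter only the counts, medians or sums of their list. A comparison of the members' protein sequences was not run.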

Additional observations from a re-analysis of the deposited data

Results flagged for a closer look

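Over the 33 members named by rule, each construct's arrays were examined for 1 array far from the others, with the times pooled, which gave 99 groups. In 3 of them an array lay farther out than the critical value, and chance alone flags about 1 in 20 groups. Rplp1 had an intensity of 24182 on knockdown 3 h replicate 2, against 27206 to 27967 on the other 5 knockdown arrays. Rps3 had 5998 on the uninjured overexpression array, against 5004 to 5119 on the other 3 overexpression arrays. Rps3a1 had 702 on uninjured control replicate 2, against 409 to 455 on the other 5 control arrays. The cause was not tested for any of them.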

How the results depend on the processing

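Calls of the named members mostly held. Values covered 33 members in 3 comparisons of constructs and 25 other settings each. Of these, 2379 kept their side of the threshold, 84 lost the call and 11 gained it. In 1, Rpl31 in overexpression, a called value turned (-0.17, limma adjusted p 0.0381, with the mean of all kept probes). Values that were not called could change sign within the 2379, as Rpl34 did in overexpression (0.02 in the main fit, down to -0.03). With cyclic loess in place of quantile normalization, the median of the members between overexpression and knockdown was 0.059, against -0.018 in the main fit. There 21 members were higher and 14 lower, against 18 and 17. For overexpression against control, cyclic loess gave 17 higher and 11 lower, against 14 and 13. Leaving out 1 array at a time gave 13 to 15 members higher and 17 to 20 lower in knockdown (median -0.01 to 0.05). In overexpression it gave 9 to 15 higher and 10 to 14 lower (median -0.05 to 0.003), with 9 higher without uninjured control replicate 1 and 9 without the 12 h overexpression array. Between overexpression and knockdown it gave 13 to 18 higher and 16 to 19 lower (median -0.03 to 0.04). After axotomy it gave 0 members at either time and 0 in the interaction, with medians of -0.03 to 0.03 at 3 h and -0.06 to -0.03 at 12 h. The cause of these shifts was not tested. Replicate numbers did not pair the arrays: of 21 pairs of groups, 7 had deviations correlated over 0.1 (median r 0.03). With the replicate block, 14 members were higher and 19 lower in knockdown, 13 and 13 in overexpression, and 0 after axotomy. Dim probes such as Rpl21 and Rpl22l1 are limited by signal over background.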
